A study of Mus musculus with 8 samples.

Results

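The polyadenylated RNA of wild-type mouse brown fat was described from a single deposited column of gene levels, in which the 3 wild-type (WT) mRNA-seq samples of the study are already combined. The members are the 300 genes with the highest level out of 21819 genes listed, after 733 rows were left out as small RNA genes by the start of their symbols (Mir, the Sno and Sca kinds Snor and Scarna, and Rnu, Rny, Rmrp and Rpr). Levels are FPKM, fragments scaled by transcript length and by the mapped fragments of the library, so that they are per length and can be compared between genes within the column. The WT mice carried the intact mmu-mir-193b allele on both chromosomes, were 2 months old, and had a mixed 129SV, FVB/N and C57BL/6 background. They came from crosses of mice with a floxed allele and MMTV-Cre mice from which the Cre had been segregated out. The other groups of the study are 3 mRNA-seq samples of mice that lack the locus (Null) and 1 microRNA library of each genotype. The Null column is used only for genes listed at 0 in WT, to say whether they are at 0 there too. For Fasn and Sumo2 its level is given, and no genotype contrast is made. The combined WT column carries no spread between animals and no depth, so every level below is a single value with no error, no test is possible, and differences between genes are descriptions.

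Brown adipose tissue is a fat depot that turns fuel into heat. Its cells hold many small lipid droplets and many mitochondria, and noradrenaline acting on beta-adrenergic receptors releases fatty acids that are oxidised by the respiratory chain. UCP1, a carrier of the inner mitochondrial membrane, lets protons return to the matrix without making ATP, and the energy is lost as heat. The tissue also makes fatty acids from glucose and takes them up from circulating lipoproteins.

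The promoters of members at the top of the ranking are shown first, with and without the best-known core promoter letters. RefSeq promoter windows of the GRCm38.p6 build run from 250 bases before to 50 bases after the annotated start. Of the 300 genes, 235 had an entry and 191 had exactly 1, and only those 191 were searched. The lines below give the 60 bases before the annotated start, 5′ to 3′ on the gene's own strand, with 4 motifs in capitals wherever they occur. The TATA box was read on the sense strand, either as TATAAA or, in the form that can overlap it, as TATATA. The GC box was read as GGGCGG on both strands, the CCAAT box by its own letters on both strands, and the core site of nuclear receptors as AGGTCA on both strands. Ucp1 and Pck1, the gene of cytosolic phosphoenolpyruvate carboxykinase, are shown for their TATA boxes, and 4 respiratory chain genes as examples with none of these letters in the 60 bases shown. In their whole 300-base windows, Cox8a and Cox7a1 do hold a CCAAT box and Ndufb8 a GC box.
Ucp1, chr8:83290288-83290347, plus strand: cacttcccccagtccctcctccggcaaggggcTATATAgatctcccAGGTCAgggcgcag
Pck1, chr2:173153013-173153072, plus strand: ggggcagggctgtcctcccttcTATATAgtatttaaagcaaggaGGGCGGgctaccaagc
Cox8b, chr7:140900447-140900506, minus strand: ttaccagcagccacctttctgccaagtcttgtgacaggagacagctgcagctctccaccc
Cox8a, chr19:7217617-7217676, minus strand: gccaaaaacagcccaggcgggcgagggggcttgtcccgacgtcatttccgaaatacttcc
Cox7a1, chr7:30184111-30184170, plus strand: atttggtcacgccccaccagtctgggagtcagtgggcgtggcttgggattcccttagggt
Ndufb8, chr19:44555443-44555502, minus strand: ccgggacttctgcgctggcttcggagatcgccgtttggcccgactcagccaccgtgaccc

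A TATA box of either form on the sense strand of these 60 bases was found in 14 of the 191 searched members (7.33%). The same letters were found in 5.60% of all 14282 genes of the table with exactly 1 entry and in 2.30% of the 7162 of them at or above 1 FPKM. The 14 were Ucp1, Pck1, B2m, Acta1, Txnip, Sod1, Anxa2, Ckm, Vim, Eef2, Mknk2, H2-Q10, Cebpa and H2-D1. They are genes of many functions, and no gene of the respiratory chain and ATP synthase was among them (0 of 48 searched), nor any of fatty acid oxidation (0 of 14), of the citric acid cycle and pyruvate class (0 of 14), of lipid uptake, droplets and lipolysis (0 of 8) or of lipid synthesis (0 of 9). With the box in 2.30% of genes at or above 1 FPKM, counts of 0 in sets of this size are near the general share.

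The core site AGGTCA, bound by nuclear receptors such as the PPARs, thyroid hormone receptors and oestrogen-related receptors, was found on either strand of the 300-base window in 44 of 191 members (23.04%). It was found in 13.8% of all genes with 1 entry and in 11.7% of those at or above 1 FPKM. The respiratory chain class had it in 10 of 48, fatty acid oxidation in 4 of 14 and lipid synthesis in 3 of 9 (Acly, Elovl6 and Insig1). The GC box was found in 55.5% of the members, between the 47.3% of all genes with 1 entry and the 67.3% of those at or above 1 FPKM, and in 17 of 48 (35.4%) of the respiratory chain class. The CCAAT box differed little, at 41.9% of members and 39.8% of all genes.

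A longer site of regulators known for mitochondrial genes was rare. The extended site of oestrogen-related receptors, TCAAGGTCA, which contains AGGTCA, occurred in 3 of 191 members, Sdhd, Atp5g3 and Timm8b, and in 0.280% of all genes with 1 entry. Sdhd encodes the membrane anchor of succinate dehydrogenase and Timm8b a small import chaperone of the mitochondrial intermembrane space. Both windows hold the same 9 bases at chr9:50603805-50603813, since the genes lie head to head, and the site is 96 bases before the Timm8b start and just past the Sdhd start. The 30 bases around it and around the site of Atp5g3, which encodes subunit c of ATP synthase, are given here with the site in capitals.
Timm8b, chr9:50603795-50603824, plus strand: tttcgagggcTCAAGGTCActctacaaccc
Atp5g3, chr2:73911359-73911388, minus strand: tgttacaaagTGACCTTGAgcgtcttcccc
All of these are matches of letters, not measured sites.

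The WT column was uneven. Of the 21819 genes, 11333 (51.9%) stood at or above 1 FPKM, 5801 at or above 10, 724 at or above 100 and 68 at or above 1000 FPKM; the 724 are 3.32% of all genes. The median was 1.31 FPKM, and 4.53 FPKM over the genes above 0. The column without small RNA genes summed to 498703 FPKM, and shares below are of that sum unless another base is named. The single highest gene held 5.47% of it, the 10 highest 13.1%, the 30 highest 21.7%, the 100 highest 36.2% and the 300 highest 52.3%. Put the other way, 42 genes held 25% of all FPKM, 257 genes held 50% and 3993 genes held 90%.

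**Figure D1:**
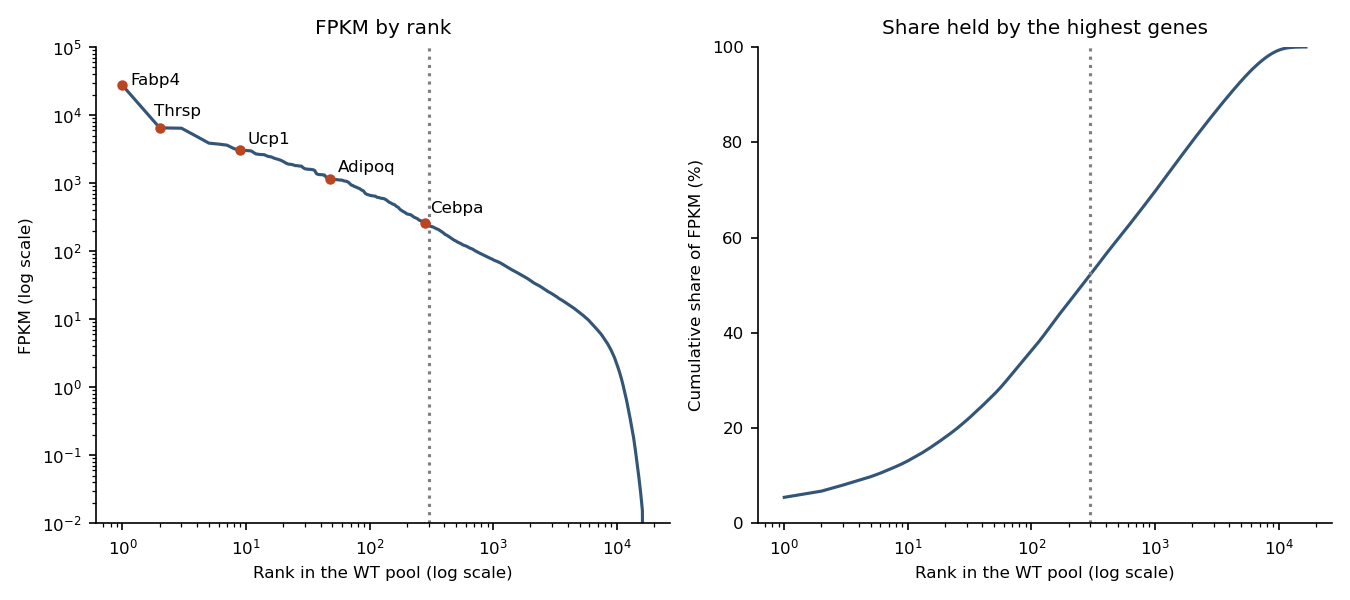
FPKM of each gene against its rank in the WT pool, both on log axes (left), and the cumulative share of all FPKM against the rank on a log axis (right); the dotted line marks rank 300 and the red points 5 named genes. Fabp4 stands apart from Thrsp at rank 2, and the curve crosses 52.3% at rank 300.

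The top of the ranking belonged to fat storage and respiration. Fabp4, the fatty acid-binding protein of fat cells, was highest at 27295 FPKM, 4.21 times the gene at rank 2. That gene was Thrsp (6483 FPKM), a lipogenic gene induced by thyroid hormone and carbohydrate. Cox8b, a subunit of cytochrome c oxidase, followed at 6407 FPKM, then Dbi (4834 FPKM), which encodes the acyl-CoA-binding protein, and Atp5b (3868 FPKM), the catalytic beta subunit of ATP synthase. Ucp1 was ninth at 3016 FPKM, so that the defining gene of the tissue was among the 10 highest but at 0.605% of all FPKM. Of the 30 highest genes, 13 encode subunits of the respiratory chain or ATP synthase.

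Other genes of the first 30 included enzymes of glycerol, fatty acid and glucose metabolism, an iron store and a signalling protein. Gpd1, which makes the glycerol phosphate for triglycerides, stood at 3615 FPKM, the glycolytic Aldoa at 3205 FPKM, and Car3, a carbonic anhydrase abundant in fat and muscle, at 3012 FPKM. Cidea, a lipid droplet protein of brown fat, reached 2615 FPKM, and Fth1, the ferritin heavy chain, 2475 FPKM. Tkt, the transketolase of the pentose phosphate pathway, stood at 2246 FPKM. Acly, which makes cytosolic acetyl-CoA, stood at 1969 FPKM, Gnas, the stimulatory G protein behind the beta-adrenergic receptors, at 1889 FPKM, and Agpat2, an acyltransferase of triglyceride synthesis, at 1856 FPKM.

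The limit at rank 300 was not a gap. S100a11 (240.9 FPKM), H2-D1 (239.8 FPKM) and Aurkaip1 (238.6 FPKM) were the last genes inside, and Mrpl42 (238.2 FPKM), Sep15 (237.7 FPKM) and Lyrm5 (235.7 FPKM) the first outside. By RefSeq type, 297 of the 300 were protein-coding. The other matched genes were the nuclear long noncoding RNA Neat1 (577 FPKM) and Rplp2-ps1, and BC002163 had no match.

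Each of the 300 genes was placed by hand in 1 of 24 classes by what its product is known to do. The respiratory chain and ATP synthase class was the largest, with 66 genes that held 29.7% of the FPKM of the 300 and 15.5% of all FPKM. Lipid uptake, droplets and lipolysis came next by FPKM, with 17 genes and 16.6% of the FPKM of the 300, but Fabp4 alone made most of it: with Fabp4 left out of the class and of the total, it held 6.83% and fatty acid oxidation, at 7.23%, stood above it. With Fabp4 in the total, fatty acid oxidation (20 genes, 6.47%), the citric acid cycle and pyruvate (18 genes, 5.81%), glucose and glycerol metabolism (13 genes, 5.69%) and lipid synthesis (11 genes, 5.66%) followed. The last of these lie close together, and Fasn and Scd1 of lipid synthesis are listed at 0, so their order is uncertain. The 5 classes of mitochondrial function together had 138 genes, 46% of the 300, and 25.2% of all FPKM. The 8 classes of mitochondria, lipid and glucose together had 179 genes and 76.2% of the FPKM of the 300.

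**Figure D2:**
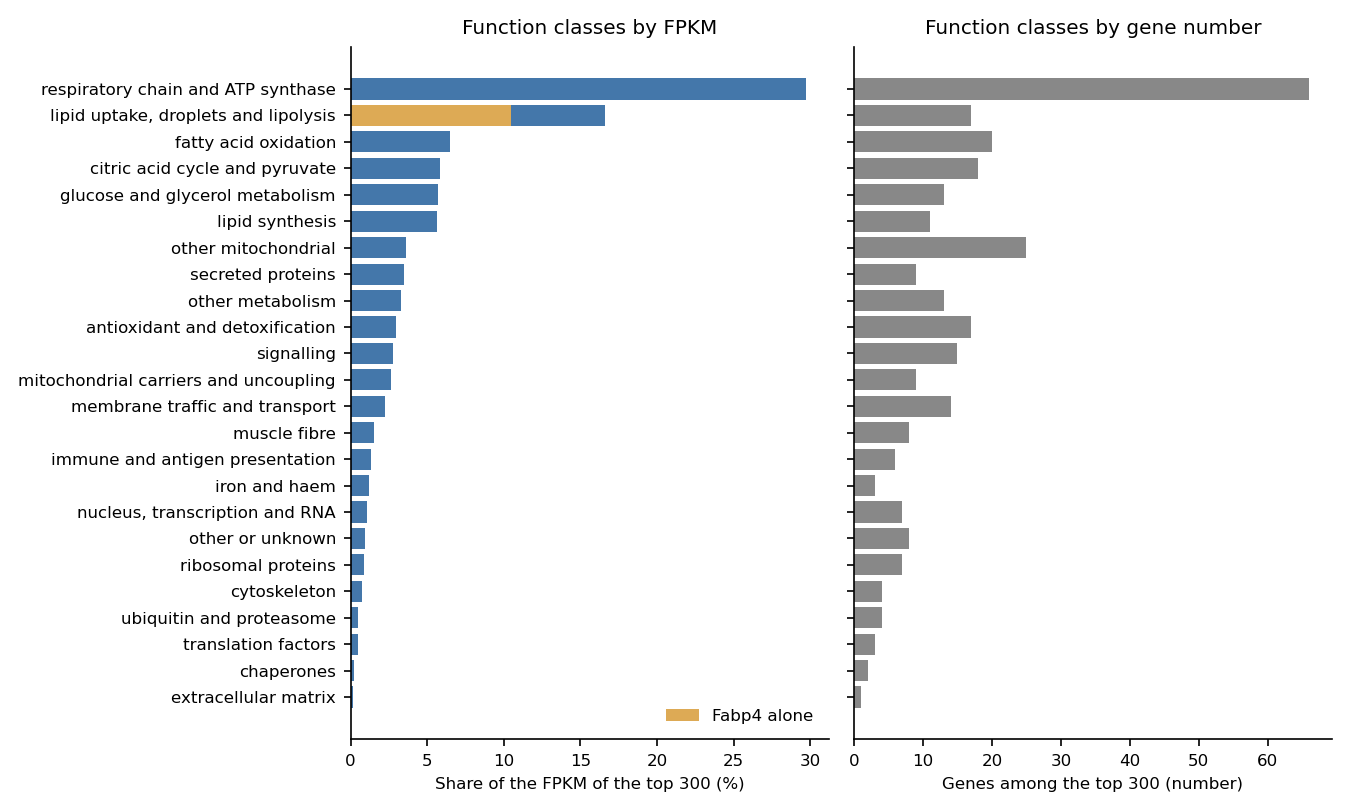
Share of the FPKM of the top 300 in percent (left) and number of genes (right) in each of 24 function classes of the WT pool; the yellow part of a bar is Fabp4. The respiratory chain and ATP synthase class leads on both scales, with 29.7% of the FPKM and 66 genes.

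The make-up shifted down the ranking. Respiratory chain and ATP synthase genes were 13 of the first 30, 22 of the next 70, 27 of the 100 after those and 4 of the last 100. Other mitochondrial genes, such as the assembly factor Chchd10 (875 FPKM), the copper chaperone Cox17 (791 FPKM) and Ghitm (616 FPKM), ran the other way, with 0, 2, 6 and 17 genes in the same bands. Among the 300, then, subunits of the chain stood mostly in the first 200 ranks and the other mitochondrial genes mostly in the last 100.

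Nearly the whole respiratory chain stood at a high level. Lists of the nuclear genes of the chain held 82 genes in the table, of which 65 were among the top 300, beside 1.37% of all genes. They summed to 77835 FPKM, 15.6% of the total, with a median of 616 FPKM beside 1.31 FPKM over all genes. The mitochondrial genome's own subunits were not analysed here, because no symbol that starts with mt- is in the table used.

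Complex I, the entry point for NADH, had 29 of 37 genes in the top 300 and a median of 543 FPKM. Ndufa4 was highest (2310 FPKM), though its product is now known to work with complex IV, and Ndufb9 (1680 FPKM) and Ndufb8 (1605 FPKM) followed. Ndufs5 was lowest (14.4 FPKM), 160 times below Ndufa4. The middle of the list was tight, with the central 50% of its genes between 368 and 652 FPKM. Complex II, succinate dehydrogenase, was even across its 4 genes, from Sdhc (535 FPKM) to Sdhb (1381 FPKM), a 2.58-fold range.

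Complex III and its electron carrier split into 9 genes between Uqcrb (618 FPKM) and Uqcrq (2684 FPKM) and 1 far below, Cycs, cytochrome c itself, at 10.1 FPKM. Cyc1, the cytochrome that hands electrons to it, stood 125 times higher at 1261 FPKM. How fragments that fit several places in the genome were counted is not given in the sources used here, so the low value of Cycs is uncertain. Complex IV, which reduces oxygen, had the highest median of the 5 lists, 1422 FPKM, with Cox8b, Cox6a1 (3741 FPKM), Cox4i1 (2972 FPKM) and Cox7a1 (2634 FPKM) at its head. Its low members were Cox6a2 (96.0 FPKM), Cox7c (64.5 FPKM) and Cox4i2 (4.40 FPKM), of which Cox7c has no other form in the lists.

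ATP synthase genes had the widest range of the 5 lists, through the low c genes below. Atp5b at 3868 FPKM stood 2.14 times above Atp5a1 (1807 FPKM) and 6.55 times above Atp5c1 (591 FPKM), although the enzyme holds alpha and beta subunits in equal number. By mRNA, Atp5g3 (475 FPKM) held 99.6% of the 3 genes that encode the same mature subunit of the c ring. Atp5g1 stood at 1.89 FPKM and Atp5g2 at 0.130 FPKM. That share rests on these low values, and Atp5g2 is among the implausibly low entries given below. The median of all 17 listed genes, the inhibitor Atpif1 (34.8 FPKM) and these low c genes included, was 475 FPKM.

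**Figure D3:**
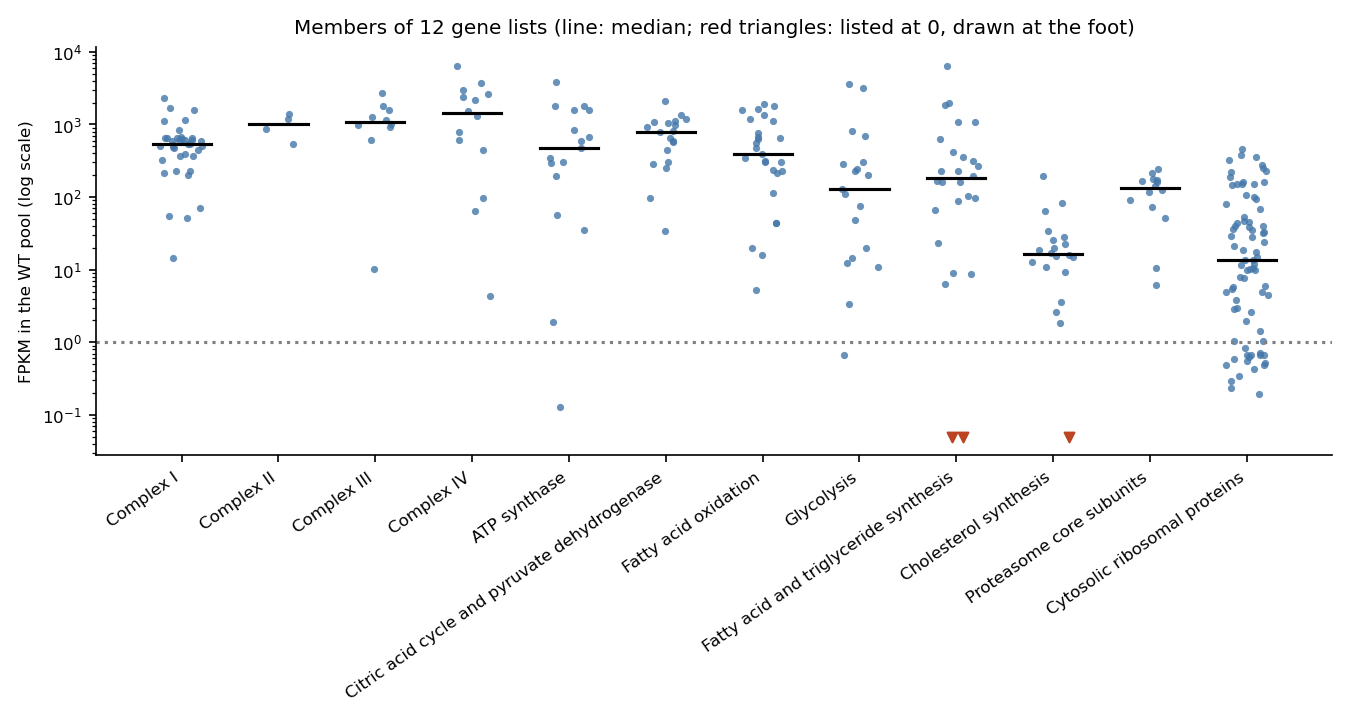
FPKM in the WT pool on a log axis of every member of 12 gene lists, with the list median as a line, 1 FPKM as a dotted line and genes listed at 0 as red triangles. Respiratory chain lists sit high and narrow except for a few members, while cytosolic ribosomal proteins spread from under 1 to 457 FPKM around a median of 13.6 FPKM.

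The pathways that feed the chain were also high. Of 19 genes of the citric acid cycle and pyruvate dehydrogenase, 17 were in the top 300, with a median of 778 FPKM. Pdha1 (1331 FPKM), a subunit of pyruvate dehydrogenase, and Idh3b (1175 FPKM), a subunit of NAD-dependent isocitrate dehydrogenase, were among the highest. The 2 succinyl-CoA synthetase beta subunits differed: Sucla2, the ATP-forming one, stood at 922 FPKM and Suclg2, the GTP-forming one, at 34.2 FPKM. Pdk4, a kinase that turns pyruvate dehydrogenase off, was itself in the top 300 at 748 FPKM.

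Fatty acid oxidation had 18 of 27 genes in the top 300, with a median of 397 FPKM. Ech1 (1899 FPKM), Acaa2 (1778 FPKM) and Acadl (1622 FPKM) were highest, and the acyl-CoA dehydrogenases for very long and medium chains, Acadvl (1332 FPKM) and Acadm (1190 FPKM), were close behind. Subunits that work in pairs were unequal: Hadha of the trifunctional protein was 3.09 times Hadhb, and Etfb of the electron transfer flavoprotein 2.86 times Etfa. The peroxisomal enzymes were lower, with Ehhadh at 44.2 FPKM and Acaa1a at 44.0 FPKM.

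Lipid handling was led by Fabp4, Dbi and Cidea. Enzymes of lipolysis followed, with Pnpla2, the first triglyceride lipase, at 1085 FPKM, Lipe, hormone-sensitive lipase, at 750 FPKM and Mgll, monoglyceride lipase, at 285 FPKM, in the order in which they act. G0s2, an inhibitor of Pnpla2, stood at 686 FPKM, and its co-activator Abhd5 at 47.3 FPKM. For uptake, Cd36 (884 FPKM), a fatty acid transporter, and Lpl (829 FPKM), which frees fatty acids from lipoproteins, were both in the top 300.

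Lipid synthesis combined very high with very low entries. Of 26 genes for fatty acid and triglyceride synthesis, 10 were in the top 300, with Thrsp, Acly and Agpat2 first and Dgat2 (1068 FPKM), which makes triglyceride, and the citrate carrier Slc25a1 (1068 FPKM) next. Fasn, fatty acid synthase, and Scd1, a stearoyl-CoA desaturase, were listed at 0. Cholesterol synthesis had none of its 20 genes in the top 300 and a median of 16.5 FPKM, with Pmvk (193 FPKM), Sc5d (82.4 FPKM) and Nsdhl (64.4 FPKM) highest.

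The glycolysis list was uneven, with 7 of 19 genes in the top 300. It also holds the glycerol-3-phosphate dehydrogenases Gpd1 and Gpd2, which are among those 7 and are not themselves steps of glycolysis. Aldoa (3205 FPKM) stood 947 times above Gapdh (3.38 FPKM), the enzyme that acts 1 step later, and Pgk1 (20.04 FPKM) and Eno1 (10.96 FPKM) were also low. The levels of successive steps were therefore not alike. Gapdh and many ribosomal protein genes have near-identical copies elsewhere in the genome, and how fragments that fit several copies were counted is not given in the sources used here, so the low values are uncertain.

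Secreted proteins made up 9 of the 300 genes. Lgals1 (1348 FPKM), galectin-1, Cfd (1334 FPKM), complement factor D or adipsin, and Adipoq (1163 FPKM), adiponectin, were highest. Apoc1 (1124 FPKM), Cst3 (1111 FPKM) and Hp (1108 FPKM), haptoglobin, came close behind. Retn, resistin, at 220 FPKM and Lep, leptin, at 60.6 FPKM were lower.

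Antioxidant and detoxification genes were 17 of the 300, led by Gpx3 (1071 FPKM), Mgst1 (932 FPKM) and Prdx5 (671 FPKM). Signalling had 15, with Gnas, S100a1 (871 FPKM) and Txnip (605 FPKM) first. Prkar2b, the type II beta regulatory subunit of protein kinase A, was also among them at 485 FPKM. Immune and antigen presentation genes were 6, led by Ifi27l1 (1124 FPKM), B2m (917 FPKM) and Ifi27l2a (643 FPKM). Other classes were small: membrane traffic (14 genes: Ctsd 1049 FPKM, Psap 607 FPKM and Anxa2 523 FPKM first), cytoskeleton (4, Tmsb4x first at 589 FPKM) and extracellular matrix (1, Sparc at 488 FPKM).

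Regulators of fat cells spanned a wide range of levels. Mlxipl (312 FPKM, rank 230), the carbohydrate-responsive factor ChREBP, and Cebpa (264 FPKM, rank 279) were inside the 300, and Pparg (233 FPKM, rank 307), the master regulator of fat cells, just outside. Adrb3 (211 FPKM, rank 355), the receptor that starts thermogenesis, was also outside. Prdm16 (6.91 FPKM, rank 6970), Ebf2 (14.8 FPKM, rank 4401) and Zic1 (1.92 FPKM, rank 10250), genes used to mark the brown lineage, were low by rank. These regulators were named after their values were seen.

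Markers of brown fat were present at very different levels. Of 13 brown fat markers in the table, Cox8b, Ucp1, Cox7a1 and Cidea were in the top 300, Adrb3 (211 FPKM) and Elovl3 (88.3 FPKM) followed, and the other 7, from Dio2 (18.6 FPKM, the median of the list) down to Epsti1 (0.823 FPKM), were low. All 30 skeletal muscle markers were present, between Ttn (7.52 FPKM) and Tnni2 (655 FPKM), with a median of 108.6 FPKM, a sum of 5848 FPKM or 1.17% of all FPKM, and 8 genes in the top 300: Tnni2, Acta1, Tnnt3, Tnnc2, Ckm, Mylpf, Pvalb and Mb. Fast-fibre forms led, as Myh4 (106 FPKM) stood above Myh7 (18.3 FPKM). The 15 epithelial and liver markers were all below 1 FPKM, with 4 at 0.

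Lists of other cell types had lower medians than the skeletal muscle list. Fibroblast and matrix markers had a median of 37.7 FPKM over 16 genes and endothelial and mural markers 24.8 FPKM over 16. Both medians were above the 18.6 FPKM of the brown fat list, and Sparc and Gsn of the fibroblast list were in the top 300. Red cell markers had a median of 3.11 FPKM over 8, with Hba-a1 highest at 96.4 FPKM. Beta-s, of the iron and haem class and outside that list, stood at 289 FPKM. Macrophage markers had a median of 4.10 FPKM over 15, with Lyz2 highest at 55.9 FPKM, and lymphocyte markers 0.204 FPKM over 13, with Cd52 highest at 11.8 FPKM. For the nerve supply, the median of 12 Schwann cell and nerve markers was 0.692 FPKM, with S100b at 69.4 FPKM and Dbh at 0. In whole tissue, fewer cells of a type and less RNA per cell cannot be told apart.

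Gene families were compared by the listed level of each member, and every share rests on those values, low entries included. In 68 families with a summed level of at least 10 FPKM, the leading member held at least 90% of its family in 28, between 50% and 90% in 33 and under 50% in 7. The median share of a leader was 82.1%. The leader was among the top 300 in 43 families, and in 11 the second member was too: fatty acid-binding proteins, perilipins, CIDE proteins, cytochrome c oxidase subunits 8 and 7A, lactate, glycerol-3-phosphate, isocitrate and malate dehydrogenases, peroxiredoxins and glutathione peroxidases.

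For cytochrome c oxidase, different kinds of form led at different subunits, by share of mRNA. For subunits 8 and 7A the forms known from heart and skeletal muscle led, Cox8b (74.7% of its family, 2.95 times Cox8a) and Cox7a1 (78.7%, 4.30 times Cox7a2). Both are also members of the brown fat marker list above. For subunit 6A the form known from liver and most other tissues led, Cox6a1 (97.5%), with the muscle form Cox6a2 at 2.50%. Cox4i1 held 99.9% for subunit 4 and Cox6b1 99.6% for 6B. The muscle markers given above also stood in this column, and their part in the muscle-type forms was not tested.

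**Figure D4:**
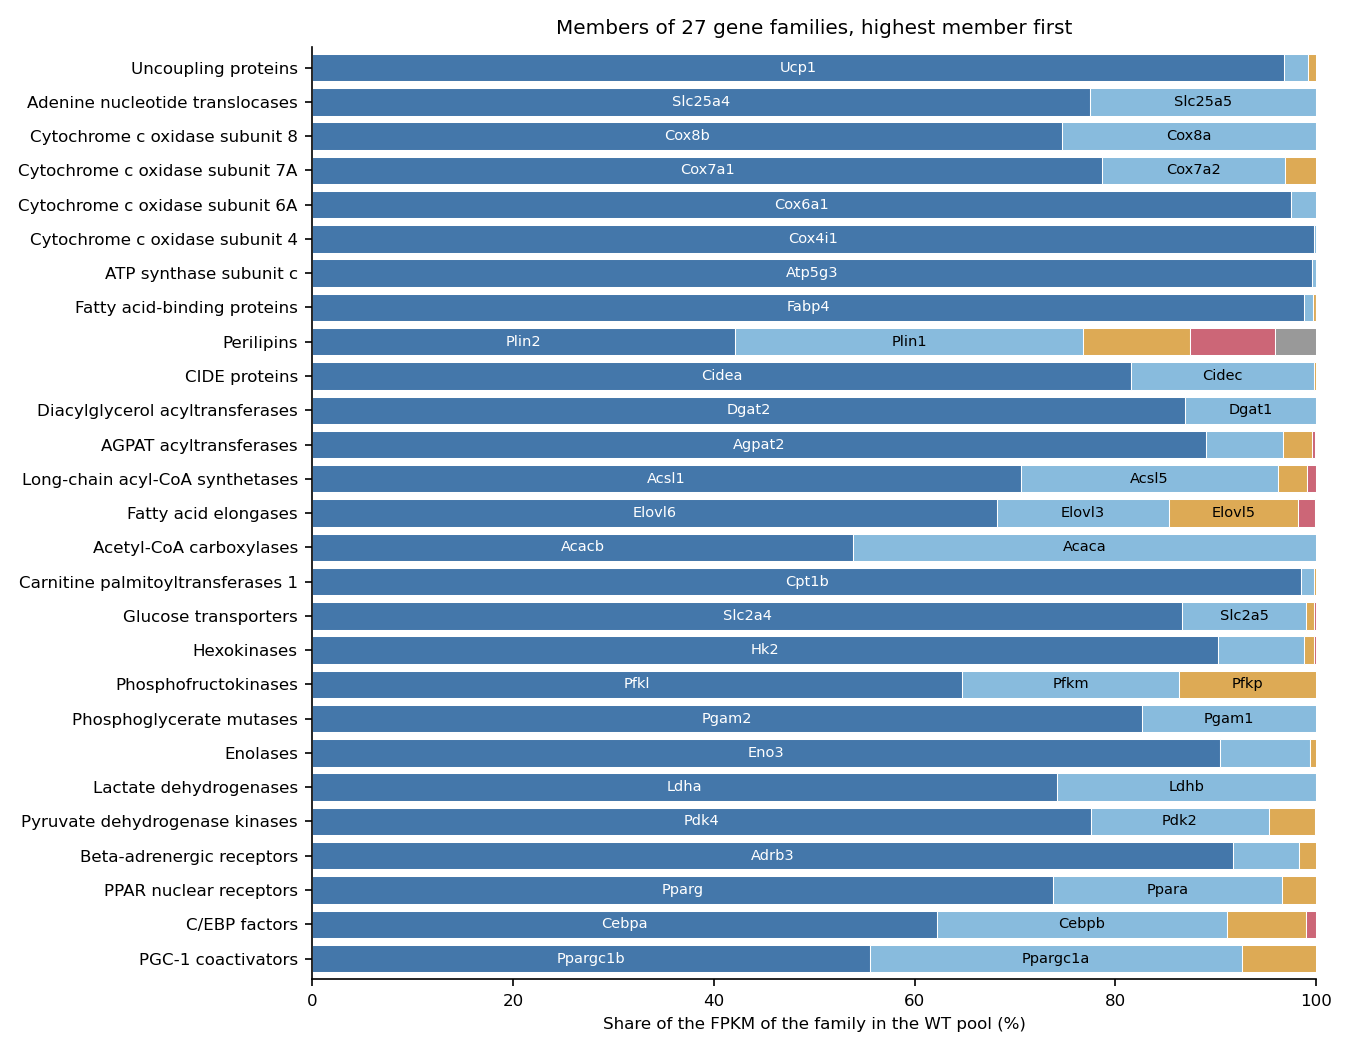
Share of each member in the FPKM of its family in the WT pool, in percent, for 27 families, with the highest member in dark blue and names shown for larger shares. Ucp1, Fabp4, Cox4i1, Cpt1b and Atp5g3 fill nearly all of their bars, while perilipins, acetyl-CoA carboxylases and PGC-1 coactivators are split.

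Among carriers, Ucp1 held 96.9% of the uncoupling proteins, with Ucp3 at 73.1 FPKM and Ucp2 at 24.7 FPKM. It stood 4.53 times above Slc25a4 (665 FPKM), the more abundant ADP/ATP carrier, which held 77.5% of its family. Cpt1b, the form of carnitine palmitoyltransferase 1 known from muscle and brown fat, held 98.5%, with Cpt1a, the liver form, at 5.27 FPKM. Pck1, the cytosolic enzyme, held 99.6% against the mitochondrial Pck2.

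Lipid enzymes mostly had 1 dominant form. Fabp4 held 98.8%, with Fabp3 at 257 FPKM and Fabp5 at 81.4 FPKM. Agpat2 held 89.1%, Lpin1 96.4%, Dgat2 87.0%, Acsl1 70.6% and Elovl6 68.2% of their families. Cidea held 81.6%, with Cidec, known for the large droplets of white fat, at 18.3%. The desaturase sum was 98.7% Scd2, but Scd1 is listed at 0, so that share rests on an entry that is itself in doubt.

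A few lipid families were shared. Among perilipins, which coat droplets, Plin2 (708 FPKM, 42.1%) and Plin1 (585 FPKM, 34.8%) stood above Plin4 (178 FPKM), Plin5 (143 FPKM) and Plin3 (68.4 FPKM). The acetyl-CoA carboxylases were near even, with Acacb, the form at mitochondria that restrains fatty acid entry, at 53.9% and Acaca, the cytosolic form for synthesis, at 46.1%. Fatty acid transport proteins split between Slc27a2 (46.3%) and Slc27a1 (45.6%).

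Sugar metabolism carried forms of insulin-sensitive tissue. Slc2a4, the insulin-responsive glucose transporter, held 86.7%, with the fructose transporter Slc2a5 at 12.4%, and Hk2 held 90.2% of hexokinases. Phosphofructokinase was led by Pfkl, the liver form (64.7%), above Pfkm, the muscle form (21.7%). Ldha held 74.2% and Gpd1 92.0% of their families. In contrast to Pfkl, muscle forms led where the ubiquitous form was low: Pgam2 (68.0 FPKM) held 82.6% with Pgam1 at 14.3 FPKM, Eno3 (110 FPKM) 90.4%, and Ckm (491 FPKM) 90.1%. Acta1, skeletal actin, held 74.5% of actins, with Actb at 22.5%. Each of these stands beside the skeletal muscle markers above, of which Eno3, Ckm and Acta1 are themselves members. The part of muscle RNA was not tested. The shares also rest on low entries of other members, such as Pgam1, Eno1 (10.96 FPKM) and Actg1 (2.26 FPKM). How fragments that fit several copies were counted is not given, so these shares are uncertain.

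Regulators had clear leaders too. Adrb3 held 91.8% of beta-adrenergic receptors, above Adrb1 (15.2 FPKM). Pparg held 73.8% and Ppara 22.8% of the PPARs, Esrra 91.8% of the oestrogen-related receptors, and Cebpa 62.2% of the C/EBP factors. PGC-1 coactivators were low and split, with Ppargc1b at 23.1 FPKM and Ppargc1a at 15.5 FPKM. Vegfa (213 FPKM) and Vegfb (163 FPKM), growth factors for blood vessels, were both expressed well above Vegfc (1.13 FPKM).

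Defence and storage families also had a main form. Fth1 held 91.8% of ferritin chains, 11.3 times the light chain Ftl1 (220 FPKM). Gpx3, the secreted glutathione peroxidase, held 61.3%, Sod1, the cytosolic dismutase, 66.0%, and Mt1 67.3% of metallothioneins. Peroxiredoxins were spread, with Prdx5 at 42.7% and the mitochondrial Prdx3 at 23.8%. Car3 held 96.1% of 13 carbonic anhydrases.

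Some entries were implausibly low for the tissue. Over all genes, 23.9% were listed at 0 and 48.1% stood under 1 FPKM. In 14 lists of genes that every cell or brown fat needs, 342 genes in all, 3 were listed at 0 (0.877%) and 22 stood under 1 FPKM (6.43%). The 3 at 0 were Fasn, Scd1 and Hmgcs1, an early enzyme of cholesterol synthesis. Of the 22, 17 were cytosolic ribosomal proteins, and the remaining entries above 0 were Atp5g2 and Aldoc (0.677 FPKM), an aldolase of brain.

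Cytosolic ribosomal proteins, which cells make in equal number, were widely scattered. The 79 genes had a median of 13.6 FPKM, and the highest was Rps15 at 457 FPKM. They were spread over the whole span, with 17 genes under 1, 18 from 1 to 10, 27 from 10 to 100 and 17 above 100 FPKM. Only 6 were in the top 300, among them Rps15, Rplp1 (385 FPKM) and Rpl8 (353 FPKM). Genes of the large subunit had a median of 10.6 FPKM over 47 and those of the small subunit 23.6 FPKM over 32. Subunits of another fixed assembly, the proteasome core, were closer together, with 14 genes from Psma3 (6.14 FPKM) to Psma6 (242 FPKM).

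A copy of a ribosomal gene was listed above its parent. How fragments that fit both were counted is not given in the sources used here, so their order is uncertain. Rplp2-ps1, which RefSeq lists as a transcribed pseudogene, was at 312 FPKM and Rplp2 at 223 FPKM, and it was the only 1 of 117 rows named as such copies that reached the top 300. Of 39 common reference genes, 10 were in the top 300 and 16 at or above 100 FPKM, with a median of 72.8 FPKM. The lowest were Ppia (4.74 FPKM), Gapdh (3.38 FPKM) and Actg1 (2.26 FPKM).

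The zeros were of 2 kinds by gene order, taken from RefSeq in GRCm38.p6 over the genes in the table. Fasn stood alone, between Dus1l (22.9 FPKM) and Ccdc57 (3.81 FPKM), and was at 1641 FPKM in the Null column. Sumo2, a small modifier protein of all cells, also stood alone, between Hn1 (10.1 FPKM) and Nup85 (10.8 FPKM). In the Null column it was at 0.0843 FPKM. Scd1 lay between Scd4 (1.18 FPKM) and Wnt8b (0.0286 FPKM) and was at 0 in both columns.

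Other zeros came in unbroken runs of neighbours. Mia3, Aida and Brox, which are transcribed in most tissues, lay in a run of 7 adjacent genes at 0, from Disp1 to Hhipl2, flanked by Tlr5 (4.66 FPKM) and 1700056E22Rik (5.88 FPKM). Hmgcs1 and Zfp131 lay in a run of 9, from Ccl28 to Tcstv3, after Gm7120 (6.83 FPKM). Vamp7 was the first gene of a run of 17 on the X chromosome, which ended before Nudt11 (0.0758 FPKM). All genes of these 3 runs were at 0 in both columns, as were 4647 of the 5205 genes listed at 0 in WT. How often runs of such length occur among all zeros was not counted. Apart from Fasn, Scd1 and Hmgcs1, these zeros were named after their values were seen, and all are read only as listed at 0, not as absence of the RNA.

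**Figure D5:**
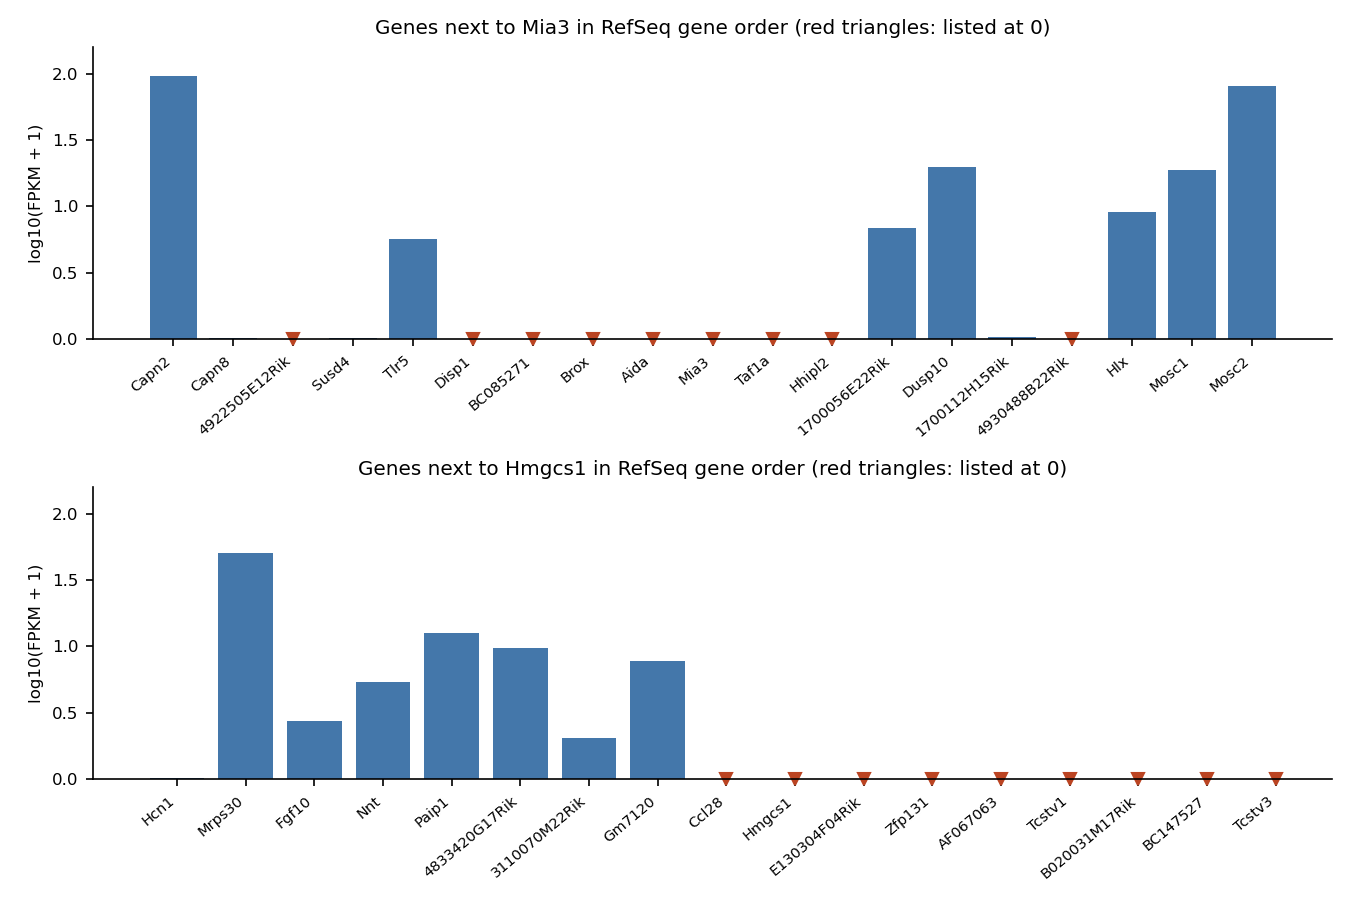
log10(FPKM + 1) in the WT pool of genes in RefSeq order next to Mia3 (top) and Hmgcs1 (bottom), with genes listed at 0 as red triangles. Mia3 lies in a run of 7 and Hmgcs1 in a run of 9 adjacent genes listed at 0, beside neighbours above 0.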

How the data were processed

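Polyadenylated RNA of brown fat was sequenced from 3 WT and 3 Null samples (TruSeq libraries, HiSeq instrument, per the labels' protocols). The authors deposited FPKM for 22552 rows, 1 column per genotype per the file headers; whether the 3 samples were pooled or averaged is not given in the sources used here, nor are the gene annotation, strand or filters. Per the submitters' processing notes, CASAVA, TopHat, BWA, edgeR and DESeq were used, in roles not stated, with the mm9 build. Depth is unknown, and no interval or test was computed.

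Small RNA rows were left out by symbol and genes ranked by FPKM with pandas 2.3.3 (Python 3.11.15). Scripts were tested on simulated data. The text names the 30 highest genes, the 3 highest of each class, the first members of each family summing to at least 10 FPKM, the 3 genes on either side of rank 300, needed genes at 0, and marker list members; other names were chosen after their values were seen. The members and lists were chosen with earlier results of these data known, and genes were put in classes by hand after ranks were seen. RefSeq (GRCm38.p6) gave names, gene order and promoters: 21593 of 21819 symbols matched. Some genes are not reported here.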

Additional observations from a re-analysis of the deposited data

How the results depend on the processing

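The share of FPKM in the highest genes was 52.3% for 300 genes, and stayed between 49.6% and 52.6% when small RNA genes were kept, when genes under 1 FPKM, Fabp4 or ribosomal protein genes were left out; it is 36.2% for 100 genes and 69.7% for 1000. The respiratory chain and ATP synthase class held 29.7% of the FPKM of the 300, 34.0% of that of 100 genes, 33.2% without Fabp4, and 22% with each gene counted once. Adding 1 FPKM to each member left 23 families, not 28, with a leader at 90% or more, and changed the leader in 0 of 68. The count of needed genes with low values depended on the limit, with 22 under 1 FPKM, 3 under 0.1 FPKM and 41 under 5 FPKM. The ribosomal protein median was 13.6 FPKM over all 79 genes and 30.6 FPKM over those at or above 1 FPKM. Class shares moved by more than 1.5 times in 30 of 69 alternatives, and list medians in 6 of 51. No paired analysis was possible because each genotype has 1 combined column; for the same reason no sample could be left out in turn. Scaling FPKM by protein length was not run, since no protein table was used here. The unknown depth limits what a low value or a 0 can show.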

Other observations

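The 733 rows left out as small RNA genes summed to 9998 FPKM, 1.97% of the whole column, and 142 of them were above 0. Mir686 (1422 FPKM), Mir3064 (1400 FPKM) and Mir682 (769 FPKM) were highest, and 8 rows would have ranked among the top 300. Whether the libraries made here capture such short RNAs was not tested, so their values per length cannot be taken as comparable with those of mRNAs. Of the left-out rows, 5 carry symbols of protein-coding genes that only share a prefix, such as Rprd1a and Rprm.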
